A study of Ovis aries with 16 samples.

Results

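IL8 (interleukin 8, CXCL8) and GRO (CXCL1) are neutrophil-attracting chemokines with named probes on these arrays of the fetal sheep hypothalamus. Only IL8 could be compared between groups. The members were all probes whose gene name in the scanner files was IL8 or GRO, which gave 4 probes for 2 genes among 15008 probes and 1029 gene names. The 16 arrays came from late-gestation Suffolk fetuses, in which the hypothalamus was collected as 1 block of tissue 24 h after a stimulus of 30 min had begun. Fetuses in the normoxia control group (NC, n = 3) and the hypoxia control group (HC, n = 5) received saline, and fetuses in the normoxia plus ketamine group (NK, n = 4) and the hypoxia plus ketamine group (HK, n = 4) received ketamine, an anesthetic that blocks the NMDA class of glutamate receptors, by intravenous injection. Per the paper, ketamine was injected before the stimulus. Hypoxia was ventilatory hypoxia of the ewe, produced by nitrogen gas given into the trachea, and all groups then recovered in normoxia. Each fetus had its own array, most pregnancies were twin, and the labels do not name littermates.

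Chemokines are small secreted proteins that draw leukocytes along a concentration gradient. IL8 and GRO belong to the CXC class that carries the motif glutamate-leucine-arginine before its cysteines, and they act on the receptors CXCR1 and CXCR2, which are carried mainly by neutrophils. Transcription of both genes is driven by NF-kappaB, and IL8 also by AP-1, after tumor necrosis factor, interleukin 1 or Toll-like receptor signaling, and in the brain endothelium, microglia and astrocytes can make them. In RefSeq's annotation of the sheep assembly ARS-UI_Ramb_v3.0, CXCL8 and CXCL1 lie on the same chromosome with 3 protein-coding genes between them, one of which is PPBP, a further chemokine of this class.

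The sequences of the probes are shown because they decide how many independent measurements each gene had. Both GRO probes were 60 bases long and started at positions 272 and 273 of their target, as the scanner files give them. They therefore shared 59 bases, marked in capitals, and read the same stretch of the transcript.

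GRO probe 1: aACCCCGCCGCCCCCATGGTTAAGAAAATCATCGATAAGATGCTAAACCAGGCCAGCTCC

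GRO probe 2: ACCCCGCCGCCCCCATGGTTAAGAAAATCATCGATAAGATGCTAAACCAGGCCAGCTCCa

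The IL8 probes were also 60 bases long and started at positions 1163 (IL8 probe 1, the brighter) and 1203 (IL8 probe 2), so that 20 bases were common to both.

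Shared by IL8 probes 1 and 2: CTTGCCCTTATTATGCAATG

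No other probe on the array shared a run of 20 bases with any of the 4 probes on either strand. Only probes were compared here, and binding of the 4 probes to other transcripts was not tested. The GC content was 53.3% for both GRO probes, 43.3% for IL8 probe 1 and 35.0% for IL8 probe 2.

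GRO could not be compared between groups. Both GRO probes were marked as saturated by the scanner software on 16 of 16 arrays, including the 3 NC arrays, so that only a lower limit of the signal was measured in every fetus. The median pixel of each GRO spot read 65530 or 65531 on every array, the highest reading that occurred. Raw mean foreground intensity of GRO probe 1 lay between 63387 and 65531 across the 16 arrays, and that of GRO probe 2 between 62491 and 65531. In the deposited log2 table the same probes lay between 15.95 and 16. No fold change or test is therefore given for GRO. Saturation on all arrays was found for 91 of 15008 probes (0.606%), of which 23 carried 16 gene names. Among these were the ferritin heavy chain FTH1, the ribosomal proteins RPS20, RPL6 and RPS27A, and PTGDS, the prostaglandin D2 synthase of brain.

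**Figure D1:**
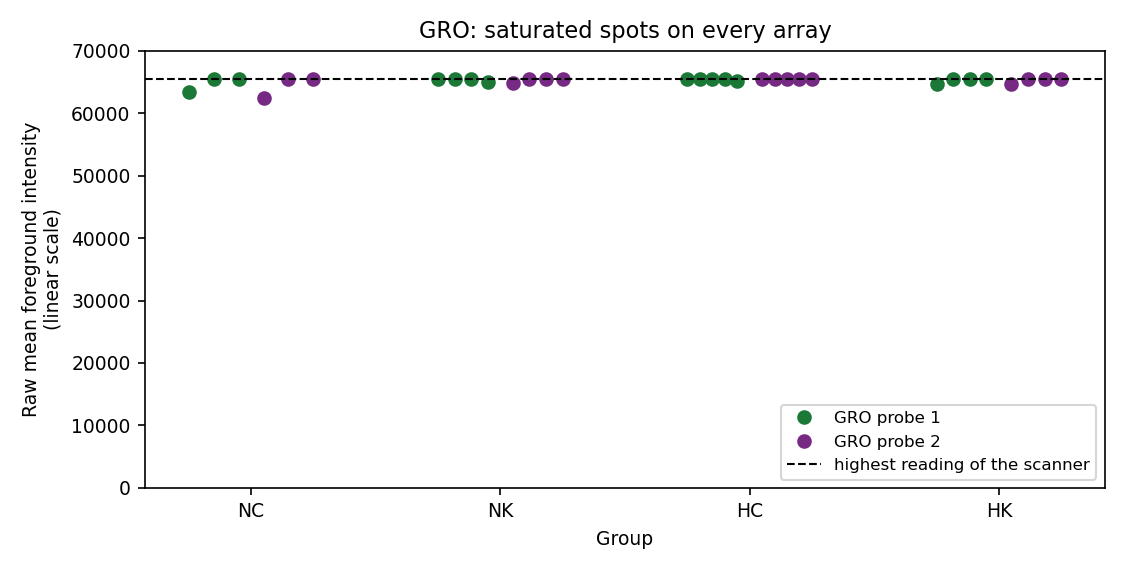
Raw mean foreground intensity (linear scale) of both GRO probes on each array, by group, with the highest pixel reading as a dashed line. All points lie between 62491 and 65531, at or just under the line, in every group.

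IL8 behaved differently: neither of its probes was saturated on any array, and the low end of its range was the limit. Values are given as log2 signal relative to the 75th percentile of the same array. A spot was well above background when the scanner software marked it so, and the lowest signal that was well above background lay between -6.61 and -5.49 across arrays. IL8 probe 1 was well above background on 11 of 16 arrays and IL8 probe 2 on 6, all of these from hypoxic fetuses.

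IL8 probe 1 read -3.96, -4.14 and -7.95 in NC1 to NC3, the last of these not well above background. In NK1 to NK4 the values were -3.68, -3.95, -7.57 and -5.48, and NK3 was not well above background. The 7 normoxic arrays thus spanned a range from -7.95 to -3.68, whether or not ketamine had been given.

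In HC1 to HC5, IL8 probe 1 read 0.83, -2.31, -3.94, 1.48 and -6.61. HC4 and HC1 were the highest of all 16 arrays, with processed intensities of 3826 and 2199, while HC5 was not well above background with an intensity of 14.3. In HK1 to HK4 the values were -3.42, -2.76, -5.74 and -6.03, and HK3 and HK4 were not well above background. The HC group therefore held both the highest arrays and 1 of the lowest, and its range of 8.09 log2 units was wider than the 3.27 units of HK.

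IL8 probe 2 gave the same order of arrays within HC but a more even baseline. It read -7.83, -8.05 and -7.80 in NC1 to NC3 and -8.06, -8.12, -7.34 and -7.42 in NK1 to NK4, and none of these 7 arrays was well above background. In HC1 to HC5 it read 0.11, -3.55, -5.28, 0.80 and -8.39, and only HC5 was not well above background. In HK1 to HK4 it read -5.32, -4.36, -7.85 and -7.70, of which HK1 and HK2 were well above background. By this probe 4 of 5 HC arrays and 2 of 4 HK arrays carried an IL8 signal, compared with 0 of 3 NC and 0 of 4 NK arrays.

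**Figure D2:**
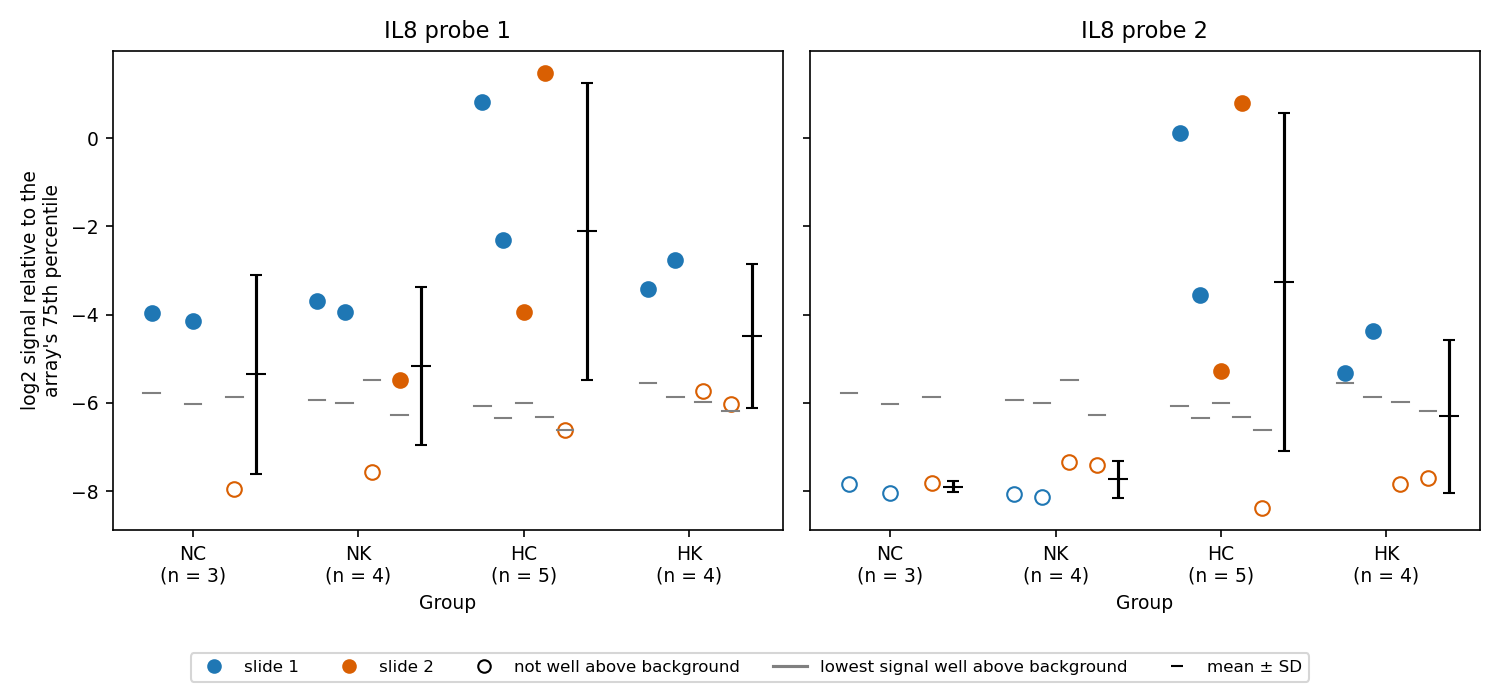
IL8 signal on each array (log2, relative to the array's 75th percentile) for both probes, by group and in replicate order, with slide in color. Open circles were not well above background, grey bars are the lowest signal well above background on that array, and black bars are the group mean ± SD. HC1 and HC4 stand highest on both probes, and HC5 is open on both.

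The 2 probes read some dim arrays differently. On the 6 arrays where both were well above background, probe 1 exceeded probe 2 by 0.68 to 1.90 log2 units. On NC1, NC2, NK1, NK2 and NK4 probe 1 was well above background and probe 2 was not, and on NC3 and NK3 neither was. The first 4 of these arrays were on slide 1, which held replicates 1 and 2 of every group, and slide 2 held the other replicates. On probe 1 the 4 normoxic arrays of slide 1 lay between -4.14 and -3.68 and the 3 of slide 2 between -7.95 and -5.48, where NC3 and NK3 were not well above background. Probe 2 gave no measured level on any of these 7 arrays, so that its slides are not compared. The part of the slide in the IL8 signal was not tested.

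The effect of hypoxia was examined by comparing HC with NC. IL8 probe 1 averaged -2.11 ± 3.36 (SD, n = 5) in HC, with 4 arrays well above background, and -5.35 ± 2.25 (SD, n = 3) in NC, with 2. The groups overlapped, and the difference of 3.24 ± 1.68 log2 units (SE) did not pass the threshold (95% confidence interval -0.38 to 6.86, limma, adjusted p = 0.667). Each adjusted p is Benjamini-Hochberg over all probes tested. The methods of the study give a threshold of 0.05 and name no adjustment. A probe was called, or said to rise or fall, when its unadjusted limma p was under 0.05. By this rule 8.03% of the 12246 probes tested were called in this comparison, 4.35% higher and 3.67% lower in HC, and none after Benjamini-Hochberg adjustment, where the smallest adjusted p was 0.277. With slide as a block the difference of IL8 probe 1 was 3.99 ± 1.36 log2 units (SE) and was called (limma, adjusted p = 0.428). Within slide 1 it was 3.31 (2 arrays against 2, all well above background). On slide 2 the single NC array was not well above background, and the 3 HC arrays averaged at least 7.24-fold higher. That average leaned on HC4 (1.48), while HC3 read -3.94 and HC5 was not well above background. The slide 2 bound was not computed without HC4.

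IL8 probe 2 was called higher in HC than in NC (limma, adjusted p = 0.482), but it passed the filter on dim probes only through 4 HC and 2 HK arrays. Without that filter it was also called (adjusted p = 0.600). Since all 3 NC arrays were too dim on it to count as well above background, only a bound on its rise can be given: averaged over all 5 HC arrays, IL8 was at least 6.19-fold higher than the lowest measurable signal of the NC arrays. For this bound the mean of HC was set against the mean of the NC arrays, each raised to its lowest signal well above background. The bound was 3.06-fold without HC4, 3.45-fold without HC1 and 15.1-fold without HC5, and between 5.90-fold and 8.80-fold without any other HC or NC array. The call was kept when each of the 16 arrays was left out in turn. Leaving out an NC or NK array removes only a reading not well above background, so those cases add no support. The groups still overlapped through HC5, which read lower than every NC array. An exact two-sided permutation test of the means gave p = 0.143 for probe 2 and p = 0.179 for probe 1, where the smallest p that 5 against 3 arrays allow is 0.0357.

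The call of IL8 probe 1 changed with a single fetus. Without HC5 its difference between HC and NC was 4.37 and was called. Without HC1 or HC4 it was 2.51 and 2.34, and without NC3, the only NC array on slide 2, it was 1.94, none of which was called.

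The effect of ketamine in hypoxic fetuses was examined by comparing HK with HC. IL8 probe 1 averaged -4.49 ± 1.64 (SD, n = 4) in HK, with 2 arrays well above background. The difference from HC was -2.38 ± 1.55 log2 units (SE, 95% confidence interval -5.70 to 0.94, limma, adjusted p = 0.784). IL8 probe 2 averaged -6.31 ± 1.74 (SD, n = 4) in HK and -3.26 ± 3.82 (SD, n = 5) in HC, a difference of -3.04 ± 1.49 (SE, limma, adjusted p = 0.728). HK3, HK4 and HC5 were not well above background on either probe, so that the differences of both probes are fitted values and not measured folds. An exact two-sided permutation test gave p = 0.286 for probe 1 and p = 0.190 for probe 2, where the smallest possible p is 0.0159. Neither probe was called, and the arrays of HK lay inside the range of HC on both. In this comparison 6.92% of probes were called, 2.98% higher and 3.94% lower in HK, with none after adjustment.

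The call of this comparison changed with the slide and with single arrays. With slide as a block the difference was -2.66 on probe 1 and -3.18 on probe 2, and both were called (limma, adjusted p = 0.626 for each). Within slide 1, where all 4 arrays were well above background on both probes, it was -2.35 on probe 1 and -3.12 on probe 2. On slide 2 neither HK array was well above background on either probe. Against the mean of HC3 to HC5, HK was at least 7.28-fold lower on probe 1 and at least 3.47-fold lower on probe 2. That mean leaned on HC4 (1.48 and 0.80), while HC3 read -3.94 and -5.28 and HC5 was not well above background. These slide 2 bounds were not computed without HC4. Without HC5 it was -3.50 on probe 1 and -4.33 on probe 2, and both were called. Without HC4 it was -1.48 on probe 1 and -2.03 on probe 2, and without HC1 -1.64 and -2.20, none of them called. Probe 2 was also called without HC3 (-3.55) or HK2 (-3.69), with array weights (-3.80), with normexp correction (-1.36) and in the deposited values (-1.46). In all it was called in 8 of 23 alternatives. These 8 include the replicate number as a block, which repeats leaving out HC5, the only array of its number.

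Ketamine without hypoxia gave no detectable difference in IL8. IL8 probe 1 averaged -5.17 ± 1.78 (SD, n = 4) in NK, 0.18 ± 1.76 log2 units (SE) from NC, with a 95% confidence interval from -3.60 to 3.96 and an exact two-sided permutation p = 0.800. The sign of this small difference was negative without NC3, NK1 or NK2. For IL8 probe 2 both groups were below background, so that no difference is given. Only 1.09% of probes were called in this comparison.

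Hypoxia in the presence of ketamine was followed by comparing HK with NK, in which 8.7% of probes were called. IL8 probe 1 differed by 0.68 ± 1.63 (SE, 95% confidence interval -2.82 to 4.18, limma, adjusted p = 0.960), and IL8 probe 2 was not called (adjusted p = 0.888). HK against NC gave 0.86 ± 1.76 (SE) on probe 1 (limma, adjusted p = 0.927) and no call on probe 2 (adjusted p = 0.859), with 6.83% of probes called. The mean of HK on probe 2 lay under the mean of the lowest measurable signals of either normoxic group, so that no fold over all arrays is given there. Within slide 1 both HK arrays and no normoxic array were well above background on probe 2. There HK was at least 2.19-fold higher than NK and at least 2.09-fold higher than NC, with 2 arrays against 2. On slide 2 no array of HK, NK or NC was well above background on probe 2. The test of whether the ketamine difference in IL8 was another in hypoxic than in normoxic fetuses gave -2.56 ± 2.34 (SE, 95% confidence interval -7.60 to 2.48) on probe 1. It was not called on either probe (limma, adjusted p = 0.996 for both), and 3.72% of all probes were called. Leaving out 1 array led to a call in 0 of 16 cases on probe 1 and in 1 of 16 on probe 2.

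**Figure D3:**
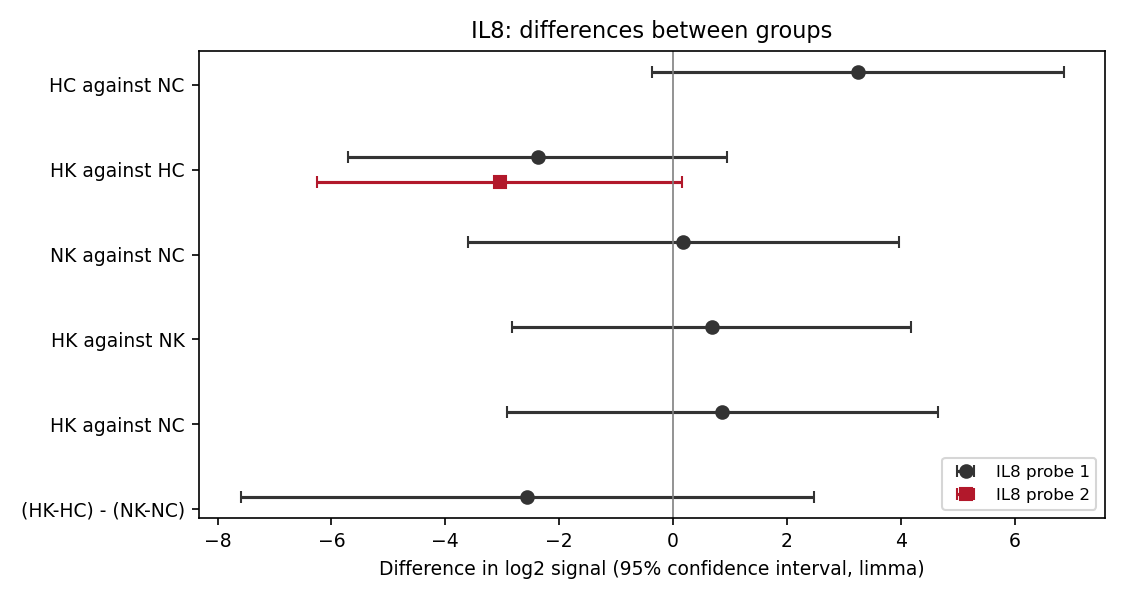
Differences in log2 signal of IL8 probe 1 with 95% confidence intervals from limma for the 5 pairwise comparisons and the interaction. Probe 2 is drawn for HK against HC only, since no normoxic array was well above background on it. HK3, HK4 and HC5 were not well above background on either probe. Every interval of probe 1 includes 0, and HC against NC lies farthest to the right at 3.24.

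Genes that could act around IL8 and GRO were followed through lists. None of the other ligands of this chemokine class and neither of the receptors CXCR1 and CXCR2 was found by name among the probes. Of other chemokines, CXCL10, which draws T cells and is induced by interferon, rose in HC against NC by 4.43 ± 1.74 log2 units (SE, limma, adjusted p = 0.532). Its HC arrays lay between -1.49 and 5.55 and its NC arrays between -3.21 and -1.37, it was saturated on 1 array, and its call was lost without NC3, HC2 or HC4, with differences between 3.59 and 5.35 over all arrays left out. CCL25 and XCL1 were not called in HC against NC or in HK against HC, and neither were the receptors CCR3 and CCR10.

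Among the inducers of IL8 and GRO and the NF-kappaB genes, several were called higher in HC than in NC. Several were also called lower in HK than in HC, which are separate fetuses. Of 13 such genes tested, 7 were called higher and 0 lower in HC against NC, beside 4.35% of all probes, and their median difference was 0.79 log2 units compared with -0.02 over all probes tested. NFKBIA, the inhibitor of NF-kappaB that NF-kappaB itself induces, rose by 1.37 ± 0.36 (SE). TLR2, the receptor for bacterial lipoproteins, rose by 1.16 ± 0.30 (SE), and TLR4, the receptor for endotoxin, by 0.79 ± 0.29 (SE). TNF rose by 1.71 ± 0.62 (SE) and IL1B by 1.09 ± 0.42 (SE), both inducers of the 2 chemokines. CD14, the co-receptor of TLR4, rose by 1.35 ± 0.59 (SE) and TNFRSF1A, a receptor of TNF, by 0.41 ± 0.18 (SE). The limma adjusted p of these 7 genes lay between 0.341 and 0.591.

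In HK against HC, 6 of the 13 genes were called lower and 0 higher, beside 3.94% of all probes called lower. The median difference of the 13 genes was -0.60 compared with 0.03 over all probes. TNF fell by 1.63 ± 0.57 log2 units (SE) and IL6, a cytokine of the acute phase, by 1.60 ± 0.60 (SE). CD14 fell by 1.35 ± 0.55 (SE), TLR2 by 0.83 ± 0.27 (SE), NFKBIA by 0.75 ± 0.33 (SE) and IL18, a cytokine of the inflammasome, by 0.47 ± 0.13 (SE). The limma adjusted p of these 6 genes lay between 0.707 and 0.716. Both comparisons share the HC arrays. IL6 itself was 1.08 ± 0.66 higher in HC than in NC, which was not called (limma, adjusted p = 0.712), and 0 of the 13 genes were called in NK against NC.

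Adhesion molecules that let leukocytes attach to vessel walls were 4 genes, of which 2 were called higher in HC than in NC, beside 4.35% of all probes, and both calls were kept in every alternative. P-selectin, SELP, on which leukocytes roll, rose by 4.71 ± 1.09 log2 units (SE, limma, adjusted p = 0.341), with 2 of 3 NC arrays well above background. ICAM1, to which neutrophil integrins bind, rose by 2.42 ± 0.80 (SE, adjusted p = 0.443). SELE and PECAM1 were not called. SELP was also called higher in HK against NK, by 3.24 ± 1.06 (SE), with 1 of 4 NK arrays well above background, and in HK against NC, by 2.90 ± 1.15 (SE). Both of these calls were lost with normexp correction and in the deposited values, and the second also without NC3, HK1 or HK2. In HK against HC neither SELP (-1.80, adjusted p = 0.760) nor ICAM1 (-0.87, adjusted p = 0.840) was called.

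Markers of neutrophils were 9 genes on the array, of which 8 were tested and MMP9 was well above background on 1 array. In HC against NC, 3 were called higher and 0 lower, beside 4.35% of all probes called higher. Of these 3 calls only that of C5aR remained without NC1 or HC2, with quantile normalization, with normexp correction or in the deposited values. C5aR, the receptor for complement C5a, rose by 0.56 ± 0.17 log2 units (SE, limma, adjusted p = 0.382) and ITGAM, an integrin chain of neutrophils and microglia, by 0.75 ± 0.33 (SE, adjusted p = 0.591). CYBB, a subunit of the phagocyte oxidase, was called (adjusted p = 0.618), but no NC array was well above background on it and its bound gives no fold. BAC5 and CATHL3, antimicrobial peptides of neutrophil granules, averaged -1.81 and -2.73 in NC and 0.04 and -0.07 in HC, differences that were not called. In HK against NK the same 2 genes were called higher, by 2.72 ± 1.20 (SE) and 3.36 ± 1.39 (SE), and neither was called without NK1, NK3, HK2 or HK4. C5aR was the single neutrophil marker called in HK against HC, at -0.59 ± 0.15 (SE, adjusted p = 0.707).

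The summed linear signal of the 8 neutrophil markers, relative to the 75th percentile, ranged from 2.42 to 3.29 in NC, 2.24 to 3.18 in NK, 2.60 to 9.91 in HC and 2.39 to 17.1 in HK. In HK, BAC5 and CATHL3 reached 2.81 and 2.87 log2 units, the highest of these 8 genes, and so weighed most at the upper end of the sum. Microglia and macrophage markers were called higher in 5 of 8 genes in HC against NC, beside 4.35% of all probes. They were CD14, CD86, the lysozyme LYZ and the pattern receptors CLEC6A and CLEC4E. Of these 5 calls, only that of CLEC6A remained without NC1, NC2, NC3, HC2 or HC3, and 3 remained without HC4. With normexp correction or in the deposited values 2 remained, those of CD14 and CD86. No NC array was well above background on CLEC6A, which passed the filter only through 4 HC and 2 HK arrays, and it was at least 2.16-fold higher in HC, or at least 1.43-fold without HC2 (limma, adjusted p = 0.468). CLEC4E (adjusted p = 0.577) was likewise too dim in NC, and no fold is given because its bound fell under 1 without HC2. The summed signal of all 8 microglia and macrophage markers ranged from 2.84 to 3.35 in NC, 3.00 to 3.39 in NK, 2.62 to 8.59 in HC and 2.48 to 4.44 in HK. CTSS was the brightest of them, at a mean of 1.41 log2 units in NC and 1.69 in HC. It weighed most in the sum and was not called. In a bulk sample more cells of a type and more RNA per cell cannot be told apart, and the part of either cell type in the IL8 signal was not tested.

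**Figure D4:**
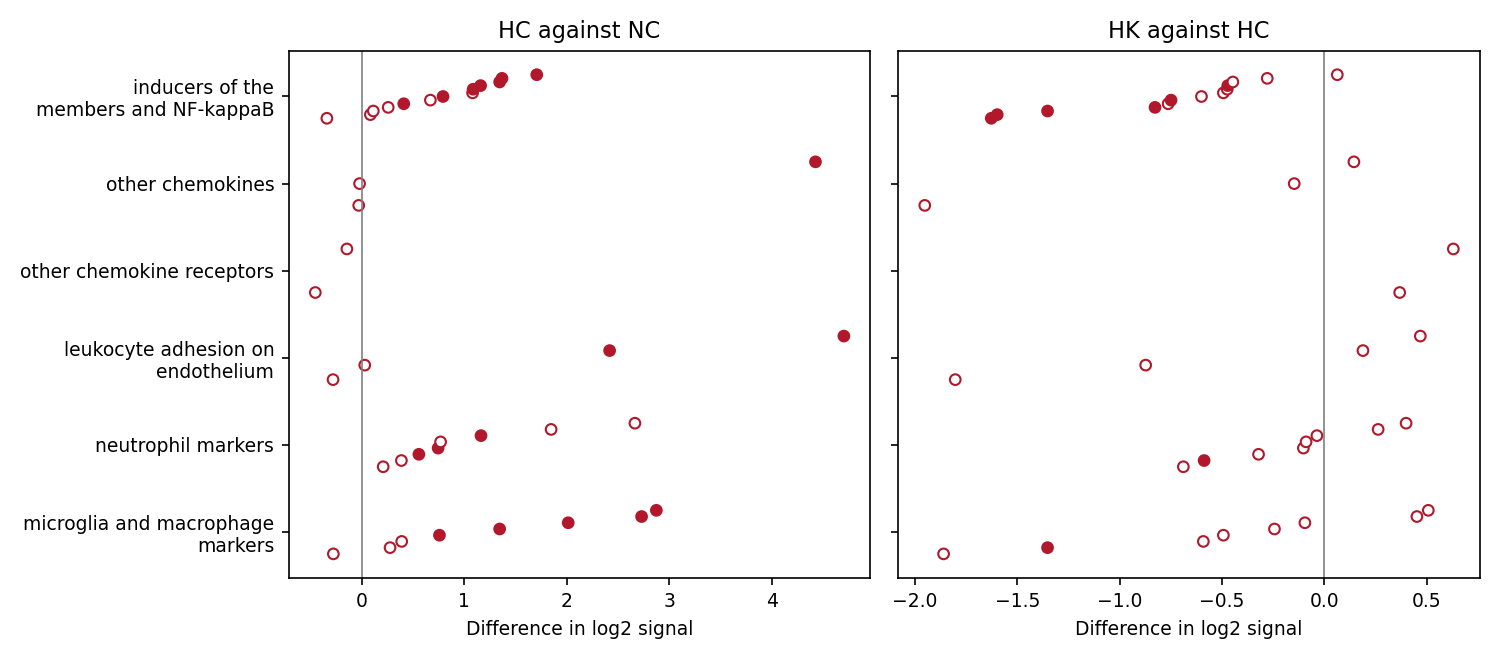
Differences in log2 signal of each tested gene of 6 lists in HC against NC and in HK against HC. Each circle is a gene and filled circles had an unadjusted limma p under 0.05. In the row of inducers and NF-kappaB genes 7 of 13 are filled to the right of 0 in HC against NC and 6 of 13 to the left in HK against HC.

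Not all of these calls were equally firm. Of the 17 list genes named for HC against NC, 7 kept their call whichever array was left out (SELP, TLR2, C5aR, NFKBIA, ICAM1, CLEC6A and TLR4). CLEC6A passed the filter only through hypoxic arrays, with no normoxic array well above background, so its kept call adds no support. Of 8 named for HK against HC, 4 did so (TLR2, C5aR, IL18 and TNF). TNF in HC against NC was not called without NC3 (1.54), IL1B without NC2 or HC1 (0.97 and 0.92), and IL6 in HK against HC without HC4 (-1.19), while the remaining genes, CXCL10 apart, lost their call without 5 to 7 arrays one at a time. Of the 7 inducers called in HC against NC, 4 remained without NC2, NC3 or HC1, and of the 6 called in HK against HC, 3 remained without HC4. The directions were kept: over all arrays left out, CD14 lay between 1.02 and 1.84 in HC against NC, and NFKBIA between -1.05 and -0.51 in HK against HC. With normexp correction or in the deposited values CLEC6A, CLEC4E, LYZ, ITGAM, TNFRSF1A and CYBB were not called in HC against NC. With slide as a block 16 of the 17 and 8 of the 8 were called, and ITGAM was the exception. The eighth gene of HK against HC was the pituitary hormone gene LHB, which was higher in HK by 0.19 ± 0.08 (SE, limma, adjusted p = 0.716), while its other probe gave -0.34.

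The tissue label was checked against marker genes. All 7 hypothalamic neuropeptide genes found were tested, 6 of them were well above background on all 16 arrays, among them OXT, SST and POMC, and 0 were called in HC against NC or HK against HC. The pituitary genes LHB and PRL were well above background on 16 and 15 arrays, while GH and POU1F1 were so on 1 array each. CGA, also a pituitary gene, was so on 14 arrays. It read from -6.38 to 1.12 across arrays and was not called in any comparison. The summed signal of the pituitary genes ranged from 6.06 to 7.37 in NC, 6.77 to 8.37 in NK, 6.06 to 9.86 in HC and 7.74 to 8.81 in HK. LHB, with a mean of 2.65 log2 units in NC, weighed most in it. LHB was called higher in HK also against NC (0.26) and NK (0.21). Against NC that call was lost with normexp correction and without NC2. Against NK it was lost with normexp correction, in the deposited values and without NK2, NK3, HK1, HK3 or HK4. The blood genes HBB and AHSP together ranged from 6.24 to 18.1 in NC, 11.2 to 14.0 in NK, 5.36 to 23.1 in HC and 6.11 to 13.9 in HK, and neither was called in HC against NC or in HK against HC. Nor were TTR, made by choroid plexus, or the astrocyte gene GFAP, both well above background on 16 arrays. The astrocyte gene AQP4 was saturated on 14 of 16 arrays and is not compared.

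The immediate early gene JUNB had the values most like those of IL8 on both probes. FOS, also an immediate early gene, ranked 2 for probe 1 and 5 for probe 2. Over the 16 arrays and among 871 named genes, IL8 probe 1 had its highest Pearson correlations with JUNB (r = 0.93) and FOS (r = 0.863), both subunits of AP-1. They were followed by PTX3 (r = 0.81), an acute-phase pentraxin, LOC100037673 (r = 0.796), described on the array as cysteine-rich angiogenic inducer 61, and NRF1 (r = 0.795), which was well above background on 3 arrays. After each group's mean was subtracted, the correlation was 0.911 for JUNB and 0.818 for FOS. For IL8 probe 2 the closest genes were JUNB (r = 0.931), NFKBIA (r = 0.93), LOC100037673 (r = 0.918), LOC100137069 (r = 0.907) and FOS (r = 0.904). IL8 probe 2 was well above background on only 6 of the 16 arrays, all hypoxic, so its other readings in these correlations are no measured levels. Its FOS value came from another FOS probe, well above background on 13 arrays compared with 16 for the FOS probe above. All these points share the arrays, their scaling and their slides, and the values are a description. JUNB read -1.23, -2.0, -2.49, -1.47 and -3.58 in HC1 to HC5, so that HC1 and HC4 were the highest and HC5 the lowest of the group, as for IL8. In HK1 to HK4 it read -2.20, -2.13, -3.30 and -3.25, with HK1 and HK2 the higher arrays on both genes. Since GRO was at the ceiling throughout, no likeness was computed for it.

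**Figure D5:**
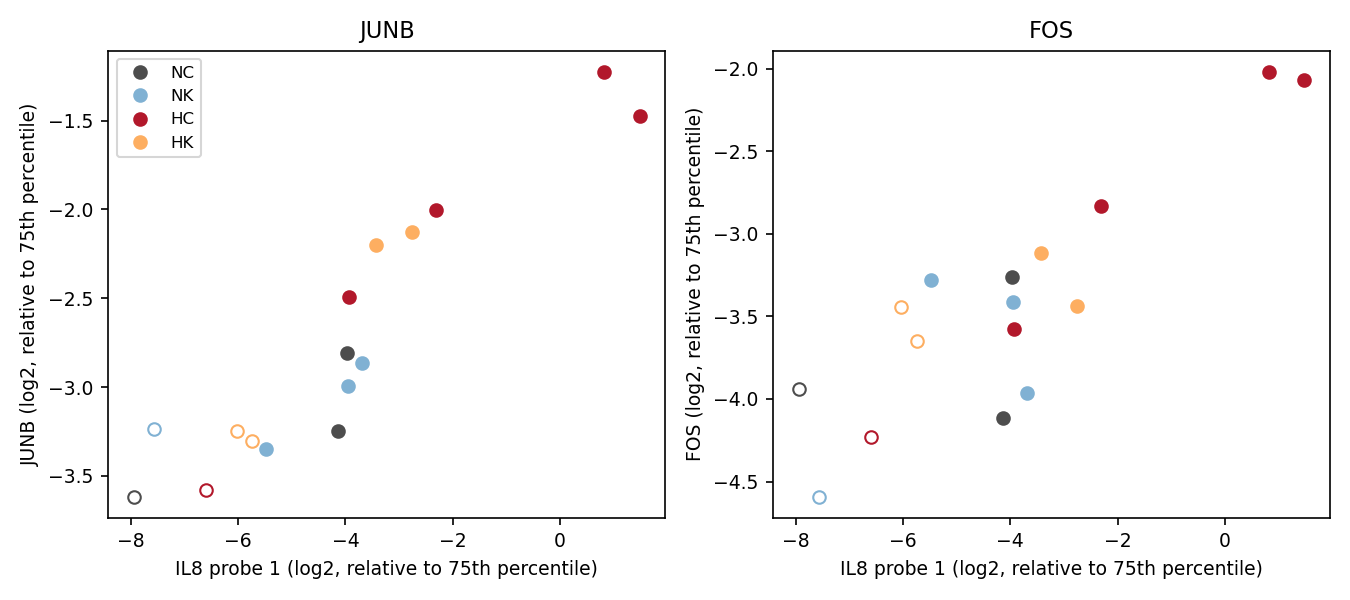
JUNB and FOS against IL8 probe 1 on the 16 arrays (log2, relative to the array's 75th percentile), with group in color and open circles where IL8 probe 1 was not well above background. HC1 and HC4 lie at the upper right in both panels.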

How the data were processed

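Total RNA of 16 hypothalami was labelled with cyanine 3 and hybridized by the authors to 1-color Agilent sheep arrays on 2 slides of 8. Per the file headers, Feature Extraction 10.1.1.1 wrote the deposited intensity values, with background subtracted and no scaling between arrays, together with marks for saturated, outlying and well-above-background spots. The authors also deposited a log2 table with no stated method, which was rebuilt to within 5e-09 by normexp correction and quantile normalization. No counts or depth exist for arrays, and the number of arrays limits the precision.

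Here 536 control spots and outlying spots (0.0801%) were left out and saturated spots kept. Each array's processed signal was expressed as log2 minus its 75th percentile, with spots of a probe averaged. Of 15008 probes, 12246 passed a filter of 3 or more arrays with signal well above background and were fitted with limma 3.58.1 in R 4.3.3, with 4 group means over 16 arrays and two-sided tests (13.7 total degrees of freedom), called at an unadjusted p under 0.05. Adjusted p-values are Benjamini-Hochberg over all tested probes. Exact permutation tests used scipy 1.17.1. P-values measure the spread between fetuses, and relatedness was not modelled. IL8 was represented by its brighter probe. Of 13 gene lists, each gene stood by its brightest tested probe. Counts were taken for all lists, and values are given for genes called in HC against NC or HK against HC, at most 20 by smallest p. A gene in 2 lists was counted in both. The 5 genes most like IL8 were chosen by Pearson r. Genes named beyond these rules were chosen after their values were seen. A RefSeq gene table (ARS-UI_Ramb_v3.0) named 726 of the 750 probes that carried such an accession. Other names are those of the array and can be old, and the probes' genome build is not given in the sources used here. The members and lists were chosen with earlier results of these data known. Alternatives were quantile normalization, normexp (offset 50), the deposited table, slide or replicate number as a block, only the groups compared, array weights, other filters, saturated spots as missing, each array left out and the other probe. The procedure was tested on simulated data.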

Additional observations from a re-analysis of the deposited data

Results flagged for a closer look

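For 3 genes around IL8, the ketamine difference after hypoxia departed from that after normoxia by limma's interaction test: TLR2 (-1.04 log2 units), C5aR (-0.72) and IL18 (-0.55), each at an unadjusted p under 0.05, where 3.72% of all tested probes were called and none after adjustment. The genes examined had been chosen by a call in HC against NC or HK against HC, and all 3 were called in HK against HC. That difference is part of the interaction, so the share over all probes is no like comparison. By list, 2 of 13 inducers and NF-kappaB genes and 1 of 8 neutrophil markers were called, and no gene of the other lists. The call of TLR2 was lost with normexp correction, in the deposited values and without NC1 or HK3, and those of C5aR and IL18 in none of the alternatives run. Single arrays stood apart from the others of their group by Dixon's 95% critical value for NFKBIA in NK3 (1.05, the highest of NK), TNF in NK4 (-5.65, the lowest of NK), TNF in HK2 (-3.17, the highest of HK) and TLR4 in HK2 (-4.62, the highest of HK). These were 4 of 66 groups examined for the IL8 probes and the named list genes, and chance flags about 5% of groups.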

How the results depend on the processing

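GRO gave no value under any alternative, since both probes were saturated on every array, and for the same reason no correlation of IL8 with GRO was computed. For IL8 probe 1 the direction of HC against NC, HK against HC and the interaction was kept in all alternatives run. Slide as a block brought HC against NC to 3.99 and HK against HC to -2.66, both past the threshold. For HC against NC the fit gave 4.63 for IL8 probe 2 and 3.94 for the mean of both probes, also past it, but no NC array was well above background on probe 2, so that these are fitted values and the measured bound is 6.19-fold. The replicate numbers were checked for pairing. Of 21 same-numbered pairs of arrays, 15 had correlated deviations over 0.1 (r from -0.06 to 0.35), and all 21 lay on 1 slide. Before the slide was removed, 9 of 16 arrays were closest to an array of their own number. After its removal 0 pairs were over 0.1 (r from -0.20 to 0.09), but subtracting slide means itself lowers correlations within a slide. Whether same-numbered arrays were paired therefore cannot be decided by this check. The replicate block gave 4.30 for HC against NC, -3.50 for HK against HC and -3.62 for the interaction, all called, and on probe 2 it gave -4.33 for HK against HC, called. HC5 was the only array of its replicate number, so that this block takes it out of the comparisons. The HK against HC differences of the block equal those without HC5 on both probes, and these calls add no separate support. NK against NC changed sign with normexp (-0.045), the deposited values (-0.071) and array weights (-0.089). Leaving out 1 array gave 1.94 to 4.37 for HC against NC, -3.50 to -1.48 for HK against HC, -1.12 to 0.98 for NK against NC, -0.12 to 1.20 for HK against NK, -0.43 to 1.56 for HK against NC and -3.68 to -1.26 for the interaction. HK against NK was negative only without NK3, and HK against NC only without NC3. With normexp, HC against NC was 1.66 and HK against HC -1.54, and in the deposited values 1.75 and -1.63, not called on probe 1, while probe 2 was called in both comparisons under both settings. The alternative without a filter for probe 2, the bounds without single arrays and the within-slide bounds were chosen after seeing the data. Exact permutation tests of 5 comparisons gave p from 0.179 to 0.800, and 3 arrays against 4 cannot go below 0.0571. Signal not well above background limits IL8 probe 2 on all 7 normoxic arrays and probe 1 on 2 of them. It also limits both probes on HC5, HK3 and HK4.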
